A study of Mus musculus with 22 samples.

Results

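The genes described here are 8 of the 12596 genes in the deposited table. They were chosen by symbol as enzymes that act on by-products of catechols and melanin. Of these 8, Mif and Ddt have dopachrome tautomerase activity, and Gstp1, Gstm1 and Gstm5 are glutathione transferases. Cbr1 is a carbonyl reductase, Aldh2 an aldehyde dehydrogenase and Akr1a1 an aldehyde reductase. All 8 were present in the table, so no member was lost to a filter on low values.

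The mice were on a C57Bl/6 background and came from a cross of Th-cre, which expresses Cre recombinase from tyrosine hydroxylase regulatory sequence, with Slc6a2-eGFP/Rpl10a, which tags a ribosomal protein with a green fluorescent protein in cells that express the noradrenaline transporter. All 4 groups shared this cross, although the labels of the libraries give only Slc6a2-eGFP/Rpl10a as genotype. The 11 animals comprised 5 that received hTyr, human tyrosinase, by infusion and 6 that received the fluorescent protein EYFP as control. Each animal gave a library of RNA immunoprecipitated with the tagged ribosomes (IP, labelled noradrenergic) and a library of the RNA before it (input, labelled total hindbrain). The tag marks every cell in which the Slc6a2 transgene is active, whether or not the infusion reached it. Age, sex, vector, dose and the time after infusion are not given in the sources used here. The labels do not say that each number in the titles is a separate mouse; it is read so here, and p-values measure the spread between these samples.

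Tyrosinase oxidises catechols to reactive quinones, which can go on to form melanin, as in the neuromelanin of the locus coeruleus, the main noradrenergic nucleus of the hindbrain. Cells dispose of quinones by tautomerising dopachrome-type products, by conjugating them to glutathione or by reducing them. Monoamine oxidase turns catecholamines into reactive aldehydes, which aldehyde dehydrogenases oxidise to acids and aldehyde reductases reduce to alcohols.

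The IP libraries held between 12654489 and 20368032 reads and the input libraries between 16988860 and 25100142, and each member had 670 to 14947 reads in a library. Levels are given as log2 CPM, where CPM are reads scaled to the size of the library. Noradrenergic markers were checked against the label: 14 of 15 listed genes were in the table, and their summed level ran from 308 to 370 CPM in input and from 796 to 2406 CPM in IP. In IP against input 12 of these 14 markers were higher and 1 lower in EYFP animals, and 13 were higher and 1 lower in hTyr animals. Of all genes, 28.5% were higher and 28.1% lower in EYFP animals, and 27.4% and 27% in hTyr animals.

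The 8 genes lie on 6 chromosomes in mouse GRCm38. Gstm5 (chr3:107895821-107898686, plus strand) and Gstm1 (chr3:108012255-108017973, minus strand) stand 113.6 kb apart in a cluster of mu-class transferases. Mif (chr10:75859353-75860240, minus strand) and Ddt (chr10:75771230-75773414, minus strand) stand 85.9 kb apart. Gstp1 lies at chr19:4035407-4037985 (minus), Cbr1 at chr16:93605853-93610505 (plus), Aldh2 at chr5:121566027-121593824 (minus) and Akr1a1 at chr4:116636510-116651680 (minus). All are annotated as protein-coding genes.

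The 250 bases before a RefSeq start (GRCm38.p6) are shown for Gstm5 and Gstm1, because these related genes of the same cluster differed in how IP compared with input. The window is chr3:107895604-107895853 on the plus strand for Gstm5 and chr3:108017974-108018223 on the minus strand for Gstm1, both written 5′ to 3′. RefSeq has a further Gstm1 start, whose window (chr3:108017819-108018068) is not shown and held no match either. Capitals mark a match to TGACNNNGC, a core of the antioxidant response element, which was searched on both strands. Other forms of this element were not searched.
Gstm5: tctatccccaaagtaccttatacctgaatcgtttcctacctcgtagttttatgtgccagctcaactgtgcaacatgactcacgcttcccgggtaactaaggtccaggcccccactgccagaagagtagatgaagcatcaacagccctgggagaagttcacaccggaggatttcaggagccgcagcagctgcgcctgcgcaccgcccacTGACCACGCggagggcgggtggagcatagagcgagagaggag
Gstm1: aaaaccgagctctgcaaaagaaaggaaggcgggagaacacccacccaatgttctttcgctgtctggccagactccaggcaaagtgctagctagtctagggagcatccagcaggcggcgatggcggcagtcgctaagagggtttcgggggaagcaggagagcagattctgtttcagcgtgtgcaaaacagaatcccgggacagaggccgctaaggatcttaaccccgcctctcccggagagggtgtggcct
Gstm5 held the match TGACCACGC at 34 to 42 bases before its start, and no match lay in the Gstm1 window. Promoter windows of 250 bases before and 50 after the start were found in the table for 7 of the 8 genes (Aldh2 excepted), and 2 of them, Gstm5 and Mif, held a match. The match in Mif began 22 bases after the start. The Gstp1 window holds tgagtcagc, which has g where the pattern asks for C and was not counted. Among all 32851 promoter windows of this length 4071 (12.4%) held a match, so these are descriptions of letters and not of binding.

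The comparison of hTyr with EYFP was first made in the IP libraries, which were enriched for noradrenergic markers but also held markers of glia (values given with the cell markers at the end). The summed noradrenergic markers ran from 796 to 1544 CPM in EYFP IP and from 927 to 2406 CPM in hTyr IP. Of these 14 markers 11 were higher in hTyr IP, with a median difference of 0.234. In limma 0 were called and 3 had an unadjusted p under 0.05. The part of this in the enzyme values was not tested. None of the 8 enzymes passed in limma at an adjusted p of 0.05: 0 of 8, with 0 of 8 at an unadjusted p under 0.05 and 0 of 8 with voom on recovered reads. Over all genes 0.0556% were called and 6.19% had an unadjusted p under 0.05. The median difference of the 8 was 0.02 on the log2 scale, against -0.005 over all 12596 genes. For every member the hTyr and EYFP ranges overlapped, in IP and in input, where 0.651% of all genes in IP and 0.175% in input had ranges that did not overlap. The 95% intervals reached from -0.42 for Aldh2, a level 1.33-fold lower, to 0.34 for Gstm5, a level 1.26-fold higher. In bulk RNA, fewer cells of a type and less RNA per cell cannot be told apart.

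Mif, a cytokine that also tautomerises dopachrome, ran from 7.62 through a median of 7.81 to 7.97 log2 CPM in EYFP IP. In hTyr IP it stood at 8.13, 7.60, 7.77, 7.71 and 7.57 in libraries IP_501, IP_502, IP_508, IP_509 and IP_510. IP_501 lay above every EYFP library, IP_502 and IP_510 lay below them, and the difference was -0.03 (SE 0.10, limma adjusted p = 0.982). Its relative Ddt, D-dopachrome tautomerase, ran from 5.68 through 6.04 to 6.13 log2 CPM in EYFP IP. Ddt stood at 6.22, 5.72, 6.19, 5.88 and 5.92 in the same 5 libraries, the order used throughout. IP_501 and IP_508 lay above the EYFP range, and the difference was 0.01 (SE 0.11, adjusted p = 0.992).

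Gstp1, the pi-class glutathione transferase, ran from 8.34 through 8.45 to 8.51 log2 CPM in EYFP IP and stood at 8.79, 8.46, 8.56, 8.56 and 8.43 in hTyr IP. Of the 5 hTyr libraries, IP_501, IP_508 and IP_509 lay above the EYFP range and the other two within it. The difference of Gstp1 was 0.11 (SE 0.08, adjusted p = 0.864), and it was 0.06 without the animal of IP_501. Gstm1, a mu-class transferase, ran from 7.78 through 7.97 to 8.19 in EYFP IP and stood at 7.71, 7.83, 8.13, 7.94 and 7.99 in hTyr IP, with IP_501 below the EYFP range. Its difference was -0.06 (SE 0.09, adjusted p = 0.936). Gstm5, another mu-class transferase, ran from 7.72 through 8.02 to 8.47 in EYFP IP and stood at 8.0, 7.92, 8.14, 8.41 and 7.97 in hTyr IP. All 5 hTyr libraries of Gstm5 lay within the EYFP range, and the difference was 0.07 (SE 0.13, adjusted p = 0.954).

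Cbr1, which reduces quinones and other carbonyls with NADPH, ran from 6.82 through 6.95 to 7.13 log2 CPM in EYFP IP. In hTyr IP it stood at 7.03, 7.02, 6.75, 7.09 and 7.06. IP_508 lay below the EYFP range and the other 4 within it, and the difference was 0.03 (SE 0.09, adjusted p = 0.973). Aldh2, the mitochondrial aldehyde dehydrogenase, ran from 6.54 through 7.01 to 7.17 in EYFP IP and stood at 6.52, 6.80, 6.73, 6.75 and 7.04 in hTyr IP, with IP_501 below the EYFP range. Aldh2 had the lowest difference of the 8, -0.18 (SE 0.11, limma adjusted p = 0.850), and its difference was lower than that of all but 12.1% of genes. With 1 animal left out it ran from -0.26 (without that of IP_505) to -0.12 (without that of IP_501), and 0 of 11 such fits called it. Over all alternative fits of Aldh2 in this comparison, 2 had an unadjusted p under 0.05 (limma, the smallest 0.013). Akr1a1, which reduces aldehydes to alcohols, ran from 8.91 through 9.03 to 9.13 in EYFP IP and stood at 9.27, 9.11, 9.05, 9.08 and 9.02 in hTyr IP. IP_501 lay above the EYFP range, and the difference was 0.08 (SE 0.08, adjusted p = 0.90).

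**Figure D1:**
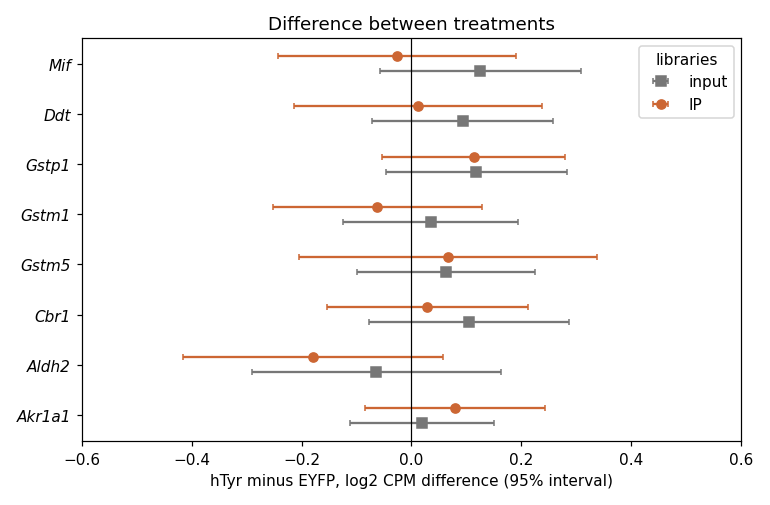
Difference between hTyr and EYFP animals for each enzyme, in log2 CPM, with its 95% interval from limma (circles, IP; squares, input; 5 hTyr and 6 EYFP animals). Every interval includes 0, and the widest reach is that of Aldh2 in IP, down to -0.42.

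The same comparison was made in RNA taken before the immunoprecipitation. In these input libraries, too, 0 of 8 enzymes passed in limma, with 0 of 8 at an unadjusted p under 0.05 and 0 of 8 with voom, where 0.00794% of all genes were called and 3.03% had an unadjusted p under 0.05. The difference was positive for 7 of the 8, with a median of 0.078 against -0.009 over all genes. The differences were 0.13 for Mif, 0.12 for Gstp1, 0.10 for Cbr1, 0.09 for Ddt, 0.06 for Gstm5, 0.03 for Gstm1 and 0.02 for Akr1a1. Aldh2 was the exception at -0.06. After removal of the length and GC trend 5 of the 8 were positive, and the differences came to 0.07 for Cbr1, 0.0495 for Mif, 0.0446 for Gstp1, 0.0125 for Ddt and 0.00594 for Gstm5. With 1 animal left out, Mif ran from 0.0637 to 0.189 and Cbr1 from 0.0538 to 0.167, both lowest without the animal of Pre_510. Over all alternative fits, Mif, Ddt and Gstp1 each had 1 with an unadjusted p under 0.05 (limma, 0.0339, 0.0414 and 0.0482). None of these fits called an enzyme. With all animals, adjusted p-values lay between 0.99 and 0.993, and the intervals reached from -0.29 for Aldh2 (1.22-fold lower) to 0.31 for Mif (1.24-fold higher).

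In input the SD of 7 of the 8 enzymes was larger in hTyr than in EYFP animals, and that of Gstm1 was smaller (0.07 against 0.16). Mif is an example, whose values in Pre_501, Pre_502, Pre_508, Pre_509 and Pre_510 of 8.04, 7.91, 7.67, 7.61 and 8.11 log2 CPM had an SD of 0.22 against 0.07 in EYFP input (7.67 to 7.85). Pre_501, Pre_502 and Pre_510 lay above the EYFP range and Pre_509 below it, while Pre_508 equalled the lowest EYFP library to the second decimal. Gstp1 stood at 8.49, 8.28, 8.06, 8.04 and 8.27 in hTyr input and ran from 8.03 through 8.10 to 8.20 in EYFP input. Again Pre_501, Pre_502 and Pre_510 lay above the EYFP range. Akr1a1 ran from 9.01 to 9.09 in EYFP input, an SD of 0.03, and stood at 9.19, 9.12, 8.96, 8.92 and 9.14 in hTyr input, an SD of 0.12, with the same 3 libraries above the EYFP range and the other two below it. The differences in spread were not tested, and the share of all genes with a larger SD in hTyr input was not counted. The enzymes varied together across the input libraries (median r of pairs 0.68, or 0.24 after removal of the length and GC trend). The 7 are therefore not separate observations.

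**Figure D2:**
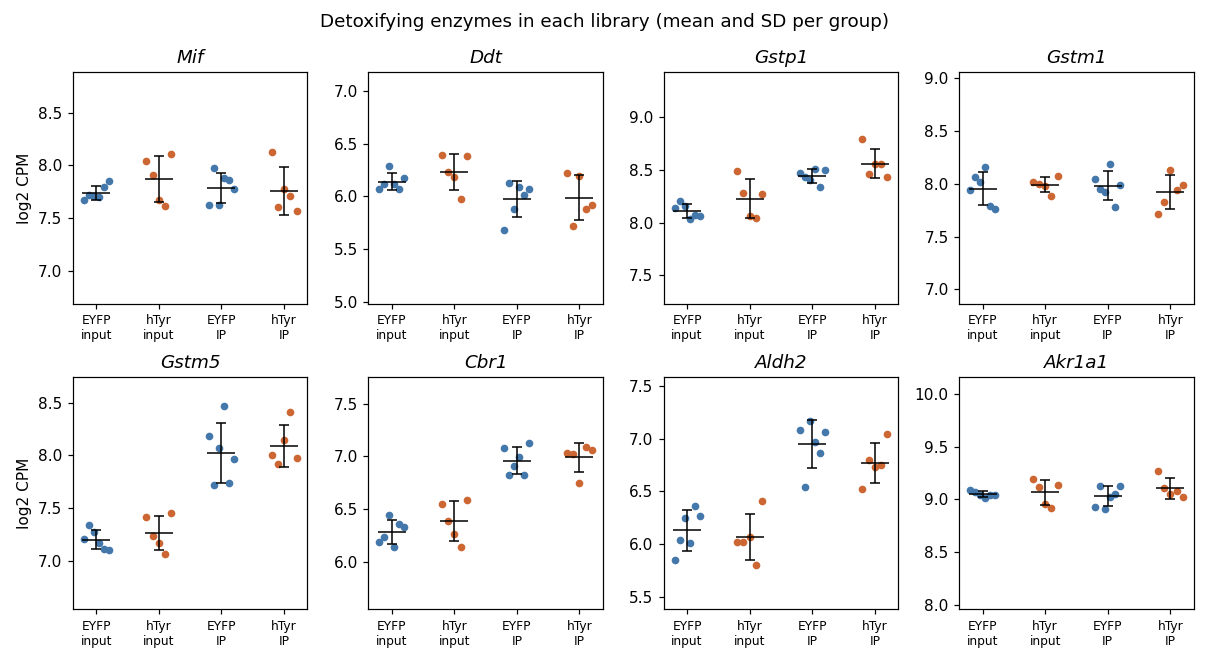
Level of each enzyme in every library, in log2 CPM, with the mean and SD of each group (blue, EYFP, n = 6; orange, hTyr, n = 5). Gstm5, Cbr1 and Aldh2 sit higher in both IP groups than in both input groups, while hTyr and EYFP points overlap in every panel.

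IP against input asks which RNAs made up a larger or smaller part of the immunoprecipitated RNA than of the hindbrain RNA it came from. In EYFP animals Gstm5, Aldh2, Cbr1 and Gstp1 rose in IP and the other 4 enzymes did not pass, so 4 of 8 were called higher and 0 lower. Over all genes 56.5% were called, 28.5% higher and 28.1% lower. In hTyr animals the same 4 genes rose, again 4 of 8 with 0 lower, where 54.4% of all genes were called, 27.4% higher and 27% lower. These main fits did not pair the IP and input libraries of an animal. In a fit that paired them Ddt was called lower in both treatments, as given below. Genes called higher in both treatments made up 24.2% of all genes, and 4 of the 8 enzymes were among them. The median difference of the 8 was 0.189 in EYFP and 0.185 in hTyr animals, against -0.025 and -0.036 over all genes.

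Gstm5 was higher in IP by 0.82 (SE 0.11, limma adjusted p = 1.22e-05) in EYFP animals, 1.77-fold, and by 0.83 (SE 0.10, adjusted p = 5.44e-06) in hTyr animals. Its input level ran from 7.10 to 7.34 log2 CPM in EYFP animals, below the lowest EYFP IP library at 7.72, so the ranges did not overlap. Within animals Gstm5 in IP exceeded input by 0.38 to 1.36, in 11 of 11. The difference was widest in the animals of IP_509 (1.36) and IP_507 (1.30) and narrowest in that of IP_505 (0.38). Gstm5 stood above 94.6% of all genes in EYFP animals by this difference.

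Aldh2 was higher in IP by 0.82 (SE 0.11, adjusted p = 1.22e-05) in EYFP animals and by 0.70 (SE 0.11, adjusted p = 5.82e-05) in hTyr animals. Its input level ran from 5.85 through 6.15 to 6.36 log2 CPM in EYFP animals and stood at 6.02, 6.02, 6.07, 5.80 and 6.41 in hTyr animals, below every IP library of the same treatment. The difference within animals ran from 0.50 to 1.23, the highest in the animal of IP_504, and was positive in 11 of 11. Cbr1 was higher by 0.68 (SE 0.07, adjusted p = 2.64e-06) and 0.60 (SE 0.10, adjusted p = 8.21e-05). Cbr1 input ran from 6.14 to 6.44 log2 CPM in EYFP animals and from 6.14 to 6.59 in hTyr animals, below all IP libraries of the same treatment. Its difference within animals ran from 0.46 to 0.96, positive in 11 of 11.

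Gstp1 rose less, by 0.33 (SE 0.06, adjusted p = 0.000142) in EYFP animals, 1.26-fold, and by 0.33 (SE 0.10, adjusted p = 0.00918) in hTyr animals. The ranges did not overlap in EYFP animals but did in hTyr animals, where Pre_501 (8.49) exceeded IP_502 and IP_510. Within animals the difference of Gstp1 was positive in 11 of 11, from 0.16 to 0.52. Ranges without overlap, higher in IP, were found for 4 of the 8 enzymes in EYFP animals and 3 in hTyr animals, against 16.7% and 20.7% of all genes.

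Mif, Gstm1 and Akr1a1 were not called in either treatment. Mif differed by 0.04 (SE 0.07, adjusted p = 0.618) in EYFP and -0.11 (SE 0.12, adjusted p = 0.449) in hTyr animals, and was higher in IP in 6 of 11 animals, from -0.54 in the animal of IP_510 to 0.24 in that of IP_505. Once the trend of each library on length and GC content was removed, Mif was called higher in EYFP animals (0.16, adjusted p = 0.0152). Mif is the shortest of the 8, with 745 exon bases where the median gene has 4599. Gstm1 differed by 0.03 (adjusted p = 0.805) and -0.07 (adjusted p = 0.502), with 5 of 11 animals higher in IP. Akr1a1 differed by -0.02 (adjusted p = 0.815) and 0.04 (adjusted p = 0.691), and its 11 within-animal differences stayed between -0.15 and 0.16.

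Ddt lay lower in IP by values that depended on the fit: -0.17 (SE 0.08, adjusted p = 0.0796) in EYFP animals and -0.25 (SE 0.11, adjusted p = 0.0645) in hTyr animals. In a fit with a replicate block for animal the adjusted p was 0.0453 and 0.0256, so Ddt was then called lower in both. With the block 33.1% and 30% of all genes were called lower. Of 10 settings other than the main fit, 3 called Ddt lower in EYFP animals and 4 in hTyr animals. Over these settings its difference ran from -0.22 to -0.13 and from -0.32 to -0.13, with adjusted p up to 0.125 and 0.174. Ddt is short too, with 773 exon bases. Neither fit that corrected for length and GC content called it, whether or not animals were paired. Ddt was lower in IP in 9 of 11 animals, the lowest values being -0.51 in the animal of IP_502 and -0.46 in that of IP_510.

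**Figure D3:**
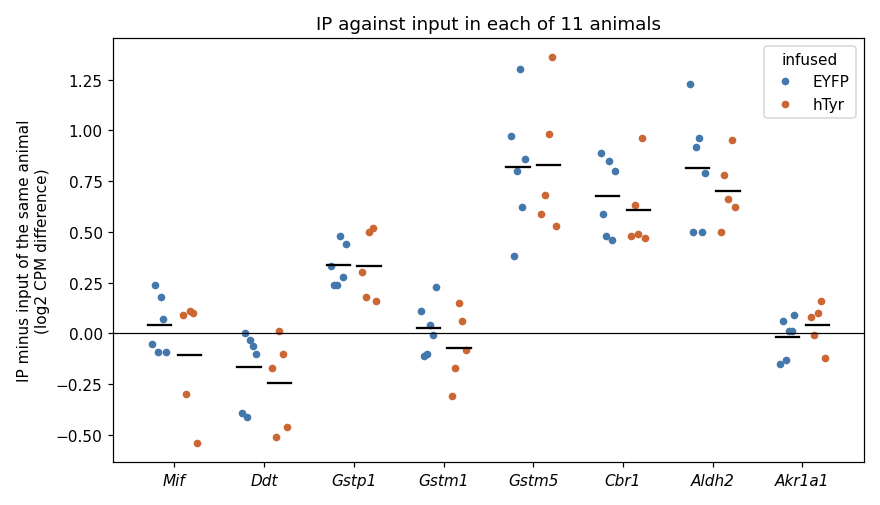
IP minus input of the same animal for each enzyme, in log2 CPM (blue, 6 EYFP animals; orange, 5 hTyr animals; lines, group means). All 11 animals lie above 0 for Gstp1, Gstm5, Cbr1 and Aldh2, and both signs occur for Mif, Ddt, Gstm1 and Akr1a1.

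Related enzymes were set side by side within animals, in pairs chosen after their values were seen. The p-values and their adjustment over 3 pairs do not account for that choice. Gstm5 exceeded Gstm1 in its IP minus input difference by 0.84 ± 0.26 (SD, n = 11), in 11 of 11 animals (exact two-sided sign-flip permutation p = 0.000977, the smallest this test can give; adjusted over 3 pairs 0.00293). Their coding sequences are 64.0% identical, with a longest identical run of 16 bases. Mif exceeded Ddt by 0.18 ± 0.13 (SD, n = 11), in 10 of 11 animals (exact permutation p = 0.00293, adjusted 0.00439), with coding sequences 51.7% identical. Gstp1 and its near-copy Gstp2 differed by -0.07 ± 0.28 (SD, n = 11; exact permutation p = 0.42, adjusted 0.42), with Gstp1 the higher in 5 of 11 animals.

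Some of these reads may be shared with other genes, depending on how the authors counted reads that map to several places, which is not given in the sources used here. Gstp1 and Gstp2 have coding sequences 98.1% identical, and 62.3% of the 50-base words of Gstp1 transcripts also occur in Gstp2, so the split between them is uncertain. The share found in any other gene was 37.6% for Mif, mainly in Gm10169 (29.8%), 30.5% for Ddt and 23.1% for Gstm1. It was 2.3% for Cbr1, 0.9% for Akr1a1 and 0 for Gstm5 and Aldh2. Gstm5 overlaps the antisense gene 4933431E20Rik by 393 bases, Aldh2 overlaps Gm42879 on the other strand by 130 bases, and Ddt overlaps Gm20441 on the same strand by 1964 bases. Whether counting used strand is not given in the sources used here.

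The interaction, which sets the effect of hTyr in IP against its effect in input, was not called for any enzyme in limma, 0 of 8, with 0 of 8 at an unadjusted p under 0.05, 0 of 8 with voom and 0 of 8 with the replicate block. Over all genes 0.00794% were called (0.0397% with the block), and 3.31% had an unadjusted p under 0.05. Values ran from -0.15 for Mif to 0.06 for Akr1a1, with adjusted p-values of 0.996 to 0.999, and the intervals reached from -0.45 for Aldh2 to 0.33 for Gstm5. The interactions nearest 0 were those of Gstm5 (0.003) and Gstp1 (-0.005).

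Per kilobase of exon, Mif had the highest mean level of the 8 in every group, at 297 ± 29.4 CPM per kb in EYFP IP (SD, n = 6), above 98.8% of all genes with a length. In hTyr IP its range overlapped that of Gstp1. Lengths are those of all annotated exons of a gene, 745 bases for Mif and 1548 for Gstp1. Their longest transcripts have 600 and 821 bases, so the order of Mif and Gstp1 in IP depends on the length used. In EYFP IP Mif was followed by Gstp1 (225 ± 9.98), Gstm5 (207 ± 42.3), Akr1a1 (190 ± 12.1) and Gstm1 (172 ± 16.5), whose neighbours in this order overlapped in range. Ddt (81.6 ± 9.03), Cbr1 (48.9 ± 4.44) and Aldh2 (24.3 ± 3.52) came next, each without overlap with the enzyme before it. In EYFP input the order was Mif (287 ± 14.0), Akr1a1 (192 ± 3.50), Gstp1 (179 ± 8.09), Gstm1 (169 ± 18.3), Gstm5 (115 ± 7.55), Ddt (91.2 ± 5.31), Cbr1 (30.5 ± 2.37) and Aldh2 (13.8 ± 1.80). There Akr1a1, Gstp1 and Gstm1 overlapped with their neighbours and the others did not. Gstm5 thus stood below Gstm1 in input and above it in IP by mean level per length. Aldh2, the lowest of the 8, stood above 68.8% of genes in EYFP input and above 80.7% in EYFP IP.

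Deviations of a library from its group mean were compared across the 22 libraries, as a description with no test, since libraries differ in depth and base composition. Over the 28 pairs of enzymes the median r was 0.23, with 20 positive. Among the 11 input libraries the median was 0.68, with 27 of 28 pairs positive, and among the 11 IP libraries 0.04. Once the trend of each library on length and GC content was removed, the medians were 0.24 in input, with 21 of 28 positive, and 0.11 in IP. Mif and Akr1a1 had the highest r of all pairs, 0.83, followed by Mif and Ddt at 0.79. Mif and Aldh2 had an r of -0.83 in IP and 0.67 in input, and Aldh2 and Akr1a1 -0.74 in IP and 0.29 in input. In hTyr input, all 8 enzymes lay above their group mean in Pre_510 (mean deviation 0.17) and 7 of 8 in Pre_501 (0.13), while 0 of 8 did in Pre_509 (-0.21). In Pre_508 (-0.10) Aldh2 lay at its group mean to the second decimal and the other enzymes lay below theirs.

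**Figure D4:**
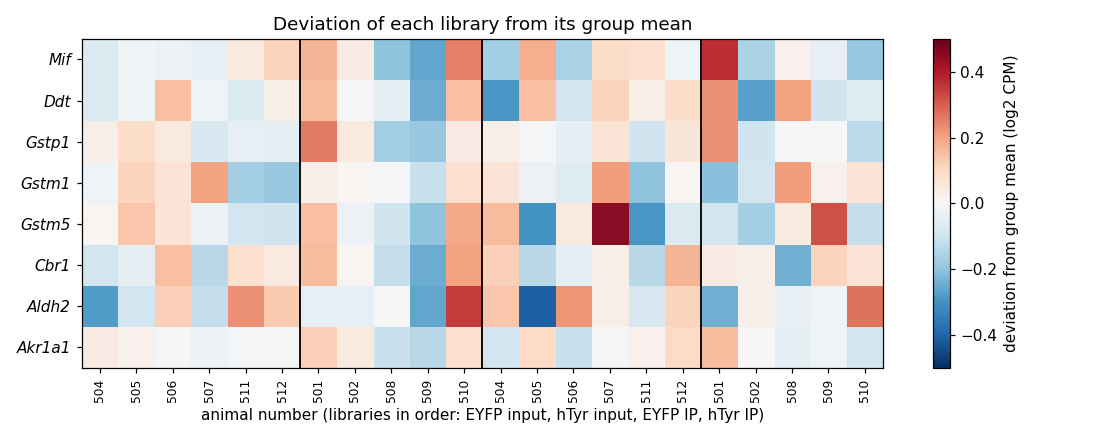
Deviation of each library from its group mean, in log2 CPM, by enzyme and animal (red, above the mean; blue, below). The hTyr input libraries Pre_509 and Pre_510 are uniform in sign over the 8 enzymes, and rows such as Mif and Aldh2 have opposite colours in several IP libraries.

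The genes of the whole table whose deviations were most like each enzyme over the 22 libraries were, for Mif, Cox6b1 (r = 0.94), Grcc10 (0.92) and Atp6v1f (0.92). For Ddt they were Cisd1 (0.86), Pttg1 (0.84) and Cuta (0.83), and for Gstp1 Prdx2 (0.86), Pef1 (0.85) and Med29 (0.84). Gstm1 was most like Ndrg2 (0.91), Cyp4f15 (0.82) and Tmx2 (0.80), and Gstm5 most like Ech1 (0.92), Vdac3 (0.87) and Rabepk (0.85). Cbr1 was most like Acot7 (0.90), Cct7 (0.89) and Aldoa (0.88), and Aldh2 most like Pcx (0.91), Aldh1l1 (0.90) and Glul (0.89). Akr1a1 was most like Stmn1 (0.92), Avpi1 (0.85) and Pithd1 (0.84).

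Other genes of the same pathways were tested on lists chosen with earlier results of these data known. In hTyr against EYFP, 0 genes of the 8 lists passed in IP (0 to 2 of a list at an unadjusted p under 0.05), and 1 passed in input: Slc6a2, the noradrenaline transporter, lower by a log2 difference of -0.91 (SE 0.13, limma adjusted p = 0.0339). This was the 1 gene called in input, and 0 genes were called there with a spread shared over all libraries or when any of 9 of the 11 animals was left out, so the call of Slc6a2 was lost in those fits. Slc6a2 is the gene whose regulatory sequence drives the tag, and in IP it differed by -0.39 (SE 0.25, adjusted p = 0.854). Gclc and Gclm, the subunits of the rate-limiting enzyme of glutathione synthesis, differed in IP by 0.19 (SE 0.095, adjusted p = 0.815) and 0.13 (SE 0.08, adjusted p = 0.852). Nqo1, a quinone reductase and a classical NRF2 target, differed by 0.03 (SE 0.15, adjusted p = 0.983).

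In IP against input, of 14 other glutathione transferases measured, 6 were called higher and 1 lower in EYFP animals, and 4 higher and 0 lower in hTyr animals. In hTyr animals this share is close to the 27.4% of all genes called higher (28.5% in EYFP animals). Gstm6 rose by 0.51 and 0.93 and Gsta4, which acts on lipid aldehydes, by 0.57 and 0.46. Of 11 genes of glutathione supply and export, 3 were higher and 1 lower in EYFP and 4 higher and 2 lower in hTyr animals, beside 28.5% and 27.4% of all genes called higher and 28.1% and 27% called lower. Slc7a11, the cystine importer, rose by 0.66 and 0.58 and Gss, glutathione synthetase, by 0.59 and 0.54, while Abcc1, a conjugate exporter, fell by 0.29 and 0.41. Gclc differed by 0.11 (adjusted p = 0.260) and 0.30 (adjusted p = 0.00988), and Gclm by -0.06 and -0.00 (adjusted p = 0.444 and 0.993).

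Of 17 other quinone and carbonyl reductases, 13 were higher and 0 lower in EYFP animals and 10 higher and 0 lower in hTyr animals, with medians of 0.34 in each against -0.025 and -0.036 over all genes. For this and the next lists, 28.5% of all genes were called higher in EYFP and 27.4% in hTyr animals. Blvra, biliverdin reductase, rose by 0.92 and 0.77 and Nqo1 by 0.79 and 0.87. Of 14 other aldehyde dehydrogenases, 11 were higher and 0 lower in EYFP and 10 higher and 0 lower in hTyr animals (medians 0.34 and 0.42), among them Aldh1b1 (0.73 and 0.79), Aldh1l1 (0.65 and 0.70) and Aldh3a2 (0.40 and 0.44). Aldh1a1 differed by 0.24 (adjusted p = 0.0572) in EYFP and 0.33 (adjusted p = 0.00317) in hTyr animals. Of 7 other aldo-keto reductases and alcohol dehydrogenases, 6 and 5 were higher and 0 lower, with Akr1b3, aldose reductase, at 1.06 and 1.27 and Adh5 at 1.03 and 1.06.

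Of 11 genes of catecholamine formation and breakdown, 9 were higher in IP in EYFP animals and 7 in hTyr animals, with 0 lower in each. Dbh rose by 4.02 and 4.30 and Slc6a2 by 3.94 and 4.47, and this list overlaps the noradrenergic markers. Maoa and Maob, which make the aldehydes that Aldh2 and Akr1a1 remove, rose by 1.31 and 1.61 and by 0.91 and 1.00. Of 6 receptors and partners of MIF, 2 and 1 were higher, near or below the 28.5% and 27.4% of all genes, with Cops5 at 0.68 and 0.85. Of 10 listed genes of the melanin pathway only 2 were in the table, and of these Mitf rose by 0.34 and 0.57.

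**Figure D5:**
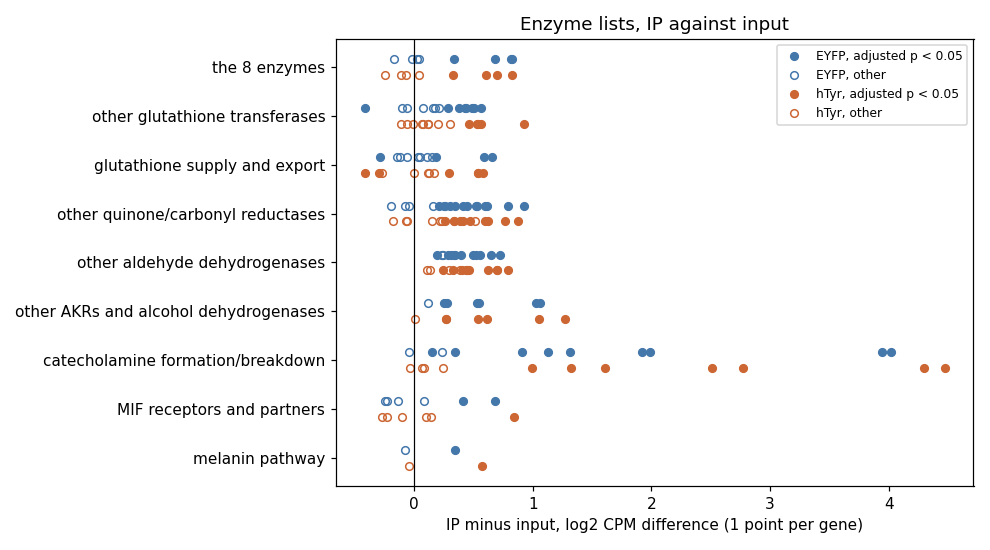
IP minus input for every measured gene of the 8 enzymes and the 8 pathway lists, in log2 CPM (blue, EYFP; orange, hTyr; filled, adjusted p under 0.05 by limma). The other aldehyde dehydrogenases and the other aldo-keto reductases and alcohol dehydrogenases lie above 0 in both treatments, while the 8 enzymes fall on both sides.

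Markers of other cells moved with IP too. Of all genes, 28.5% were called higher and 28.1% lower in EYFP animals, and 27.4% and 27% in hTyr animals. The summed level of 14 astrocyte markers ran from 3223 to 4066 CPM in input and from 3603 to 5120 CPM in IP, with 6 higher and 3 lower in EYFP animals and 6 higher and 4 lower in hTyr animals. The 16 oligodendrocyte markers ran from 8104 to 11071 CPM in input and from 7522 to 10520 CPM in IP, with 8 lower in each treatment and 4 and 5 higher. The 12 microglial markers ran from 273 to 489 CPM in input and from 272 to 552 CPM in IP, and the 9 endothelial markers measured of 12 from 86 to 125 CPM and from 90 to 177 CPM. Of the microglial markers 0 were higher and 1 lower in EYFP animals, and 2 higher and 1 lower in hTyr animals. Of the endothelial markers 4 were higher and 0 lower in EYFP animals, and 5 higher and 0 lower in hTyr animals, with median differences of 0.308 and 0.453. None of these markers was at 0 in any library. Their part in the IP against input differences of Gstm5, Aldh2, Cbr1 and Gstp1 was not tested.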

How the data were processed

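Ribosome-associated and input RNA of mouse hindbrain was sequenced in 22 libraries. The authors deposited a table of log2 CPM values; STAR, featureCounts and the mm10 build are named in the submitters' processing notes, while versions, filter, scaling, strand and the treatment of multiply mapped reads are not given in the sources used here. The deposited log2 values gave whole reads for 100% of entries (tolerance 0.05 reads), with a pseudocount that averaged 1.98 reads, and depth is the sum of these reads. Reads have no molecular identifiers. There were 0 columns left unused.

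The log2 values were fitted gene by gene with limma 3.58.1, run in R 4.3.3, using lmFit and then eBayes on a mean-variance trend, with Benjamini-Hochberg adjustment over all 12596 genes and a threshold of 0.05. This gave all adjusted p-values for genes, and the fits were tested on simulated data. The simulated libraries were independent, had the spread of the input libraries and held changes larger than any hTyr effect on the enzymes. That test therefore does not cover effects as small as those, nor the pairing of libraries. IP and input libraries with the same number in their titles deviated together (mean r 0.448, from 0.279 to 0.626 over 11 animals, against -0.04 between animals), so the number pairs them. The main fits of IP against input and of the interaction did not use this pairing. The replicate block uses that number.

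The 8 enzymes were named whatever their values. From the other lists, genes past the threshold between the treatments or in the interaction were named, with up to 2 rises and 2 falls in IP against input past it in both treatments, plus Gclc, Gclm, Nqo1, Maoa, Maob, Aldh1a1, Aldh3a2, Akr1b3 and Adh5; a further gene of that rule is not reported here. For likeness, the 3 genes with the highest Pearson r were named per enzyme. Members and lists were chosen with earlier results of these data known. Overlaps and lengths came from GENCODE M21 (GRCm38), with a length and GC content for 12376 genes (98.3%), and promoters from RefSeq. Alternatives were no trend, quantile normalization, median centring, a pseudocount of 5 CPM, a filter that left the upper 75% of genes, voom on recovered reads, removal of each library's length and GC trend (loess, span 0.4), a shared spread, the replicate block and leaving out each animal. Figures were drawn with Python 3.11.15.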

Additional observations from a re-analysis of the deposited data

Results flagged for a closer look

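Cbr1 in hTyr IP had 1 library far from the others of its group. IP_508 stood at 6.75 log2 CPM (1513 reads), where the nearest library stood at 7.02, and this distance was 0.781 of the range of the 5 libraries. Of 32 groups of libraries tested for such a distance 1 was found, and chance gives about 1 in 20, or 1.6. Without an animal, the hTyr against EYFP difference of Cbr1 in IP lay between 0.001 and 0.09, and 0 of 11 such fits called it.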

How the results depend on the processing

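Over 712 alternative fits of the members, 663 kept their direction and side of the threshold, 39 changed sign and 10 passed the threshold where the reported value had not. All 8 results called, the higher IP levels of Gstp1, Gstm5, Cbr1 and Aldh2 in both treatments, stayed called under the 10 other settings and without each animal, and 0 of them changed sign. No enzyme was called for hTyr against EYFP or the interaction under any setting run.

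Sign changes were all in results that were not called. With the length and GC trend removed, hTyr against EYFP came to 0.00223 for Mif and -0.00804 for Cbr1 in IP, and to -0.0336 for Gstm1 and -0.00199 for Akr1a1 in input. The same removal gave 0.11 for Mif and 0.0211 for Gstm1 in IP against input of hTyr animals, with or without the replicate block, and 0.0702 for Gstp1 in the interaction, with or without the block. Median centring gave -0.00745 for Mif and -0.0247 for Gstm1 in IP against input of EYFP animals, -0.0273 for Akr1a1 in hTyr animals, and -0.015 for Gstm5 in the interaction, and quantile normalization gave 0.00518 for Gstp1 there.

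Without an animal the sign also changed for 3 genes in hTyr against EYFP in IP, where values ran from -0.118 to 0.020 for Mif, from -0.048 to 0.078 for Ddt and from -0.015 to 0.155 for Gstm5. In input they ran from -0.0105 to 0.056 for Akr1a1, from -0.151 to 0.00121 for Aldh2 and from -0.00426 to 0.075 for Gstm1. In IP against input of EYFP animals they ran from -0.0398 to 0.00896 for Akr1a1 and from -0.014 to 0.054 for Gstm1, and in the interaction from -0.052 to 0.038 for Gstp1 and from -0.129 to 0.0995 for Gstm5.

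Ddt in IP against input was called lower in EYFP animals with quantile normalization (-0.21), median centring (-0.22) and the replicate block (-0.17), and in hTyr animals with these (-0.30, -0.32 and -0.25), with a shared spread (-0.25) and without the animal of IP_509 (-0.28). Mif was called higher in EYFP animals with the length and GC trend removed, alone (0.16, adjusted p = 0.0152 by limma) or with the replicate block (adjusted p = 0.00994). The block changed no other call of a member.

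Over all genes, 14 genes passed for hTyr against EYFP in IP with a shared spread, against 7, and 3 to 11 without an animal (11 without that of IP_508, and 3 without that of IP_502, IP_506, IP_509, IP_511 or IP_512). In input 0 passed with a shared spread (253 at an unadjusted p under 0.05), against 1, and 0 to 2 without an animal (2 without that of Pre_509, 1 without that of Pre_504 and 0 without each of the others). For the interaction 5 passed with the replicate block and 7 with the block and the trend removed, against 1, and 0 to 5 without an animal (5 without that of IP_510, 2 without that of IP_501 or IP_508, and 0 without that of IP_502 or IP_512). In IP against input, 6091 to 7331 genes passed without an animal in EYFP (7123 with all) and 5895 to 6428 in hTyr (6853 with all). Causes were not tested.

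With 5 and 6 animals and SEs of 0.08 to 0.13 in IP, the intervals of the hTyr effect in IP allow levels up to 1.33-fold lower (Aldh2) or 1.26-fold higher (Gstm5), so the absence of calls does not show that levels were equal.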

Other observations

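Chac1, which breaks down glutathione and belongs to no naming rule, was chosen after its values were seen. It stood at 4.34 log2 CPM in hTyr IP and 3.68 in EYFP IP (n = 5 and 6), a difference of 0.66 (SE 0.15, limma adjusted p over all genes = 0.415), and the ranges overlapped. In input it differed by 0.16 (SE 0.14, adjusted p = 0.99), and in IP against input by 0.03 (adjusted p = 0.822) in EYFP and 0.54 (adjusted p = 0.0160) in hTyr animals. The interaction was 0.50 (SE 0.22, adjusted p = 0.996), so that difference between the treatments was not called. Gstm6, another glutathione transferase, stood at 4.71 against 4.37 log2 CPM in IP, a difference of 0.34 (SE 0.13, limma adjusted p = 0.754), again with overlapping ranges. Further genes of the lists were also chosen after their values were seen. Dcxr differed by 0.38 in IP (SE 0.11, adjusted p = 0.533), without overlap, as for 0.651% of all genes, and by 0.40 in input (adjusted p = 0.99). In IP, Th differed by 0.99 (SE 0.28, adjusted p = 0.533) and Abcc5 by -0.25 (SE 0.10, adjusted p = 0.776), both with overlap.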
